A study of Homo sapiens with 9 samples.

Results

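The genes described here are 45 genes of glycolysis and of the response to low oxygen, chosen by symbol: glucose carriers, the glycolytic enzymes, enzymes that set the fate of pyruvate, the HIF transcription factors with their oxygen sensors, and known HIF targets. Each of the 45 symbols matched 1 of the 60683 gene IDs in the count files. They were followed through 9 RNA-seq libraries of the HEK293T line, which derives from human embryonic kidney and carries the SV40 large T antigen. Parental cells were compared with clone 15 and clone 37, with 3 libraries in each group. Both clones were grown from single sorted cells after the piggyBac transposon had placed 2 reporters in the genome. The first reporter, ATG-(CAG)60-Myc-NLuc, carries 60 CAG units, a repeat that causes several inherited ataxias when expanded, and the second, ATG-(CAG)0-Myc-FLuc, carries 0. Per the labels the integrands were expressed strongly in clone 37 and weakly in clone 15, and parental cells carried neither. All 3 lines were grown in DMEM with fetal bovine serum under a common atmosphere, and no low-oxygen or glucose treatment is named.

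Each expression level is represented by 1 clone, so integrand expression and other differences between the clones cannot be told apart. Clone 15 libraries were read at 100 bp and the others at 75 bp, which means that effects of the read length and of that clone cannot be told apart. The labels do not say whether replicates came from separate cultures, and p-values measure only the spread between these libraries, which may be technical. Gene counts summed to between 10334090 and 38093340 per library, with the highest totals in clone 15. Of 10 HEK293 markers, 9 were detected in all 3 groups and PAX8 was at or near 0. The summed level of that list was 1350 to 1647 CPM (gene counts scaled to a common library total) in parental cells, 4114 to 4273 in clone 15 and 848 to 918 in clone 37, a spread carried by the neurofilaments NEFL and NEFM. Lists of 6 blood, 4 endothelial and 3 hepatocyte markers stayed under 3 CPM in sum in every library, with CD3E and HBB at 0 throughout. The 5 fibroblast markers summed to 38.3 to 41.8 CPM in parental cells, 58.5 to 173 in clone 15 and 21.1 to 21.9 in clone 37, and COL1A2 had 213, 300 and 1059 counts in clone 15 and 0 in the other 6 libraries. Clone 15 replicate 3 stood apart on that list, and the part of these markers in the results was not tested. Without it, 20 members were lower in both clones, against 21 with it.

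Glycolysis splits glucose into pyruvate in the cytosol and yields ATP without oxygen, and lactate dehydrogenase then regenerates the NAD that the pathway consumes. Hypoxia-inducible factors (HIF) are pairs of an alpha subunit, HIF1A or EPAS1 (HIF-2 alpha), with ARNT. In the presence of oxygen the EGLN prolyl hydroxylases mark the alpha subunit, the VHL ubiquitin ligase has it degraded, and HIF1AN blocks its activation domain. When oxygen falls the alpha subunit persists, binds DNA at a core of ACGTG or GCGTG, and raises genes of glucose uptake, glycolysis, pyruvate diversion, blood vessel growth and mitophagy. HEK293T cells, like many transformed lines, take up much glucose and release lactate.

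Members were tested for differences with edgeR's quasi-likelihood test over all genes, and a gene was called at a Benjamini-Hochberg adjusted p under 0.05. After a filter on low counts 43 of the 45 were tested. SLC16A3 (the lactate exporter MCT4) was at most 0.555 CPM in any library, and CA9, a carbonic anhydrase widely used as a marker of low oxygen, at most 0.0913 CPM. In clone 37, 30 of 43 members were lower than in parental cells and 3 were higher. Of all 16501 genes tested in that comparison, 27.3% were called lower and 26.7% higher, so the members' share of lower calls (69.8%) stood above the background. In clone 15, 24 of 43 were lower (55.8%) and 3 higher, where 26.2% of all 17703 genes were called lower and 25.1% higher. The median log2 fold change of the members was -0.41 in clone 37 and -0.38 in clone 15, against 0.02 over all genes in each. Both comparisons use the same 3 parental libraries. In bulk RNA, a lower level in each cell and fewer cells with the transcript cannot be told apart.

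The 21 members lower in both clones were the glucose carriers SLC2A1 and SLC2A3, the enzymes HK2, ALDOC and PGK1, PDK1, SLC16A1, PFKFB3 and PFKFB4, the oxygen-sensing genes EGLN3 and VHL, 9 HIF targets outside glycolysis (VEGFA, CA12, BNIP3, BNIP3L, DDIT4, ANKRD37, P4HA1, P4HA2 and KDM3A) and the arrestin TXNIP. Of the 16360 genes tested in both comparisons, which share their parental libraries, 14.6% were called lower in both. The 21 lie on 13 chromosomes, with at most 4 on any one. For all 21, every library of each clone lay below every parental library. The 21 were picked by calls on these same libraries, so this is no separate evidence. Its share over all genes was not computed. HIF1AN was the only member called higher in both clones, and ALDOA was higher in clone 37 and lower in clone 15. Parental replicate 3 held the lowest parental value of 19 of the 21 genes. Without that library 23 members were lower in both clones, and the 21 were among them.

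**Figure D1:**
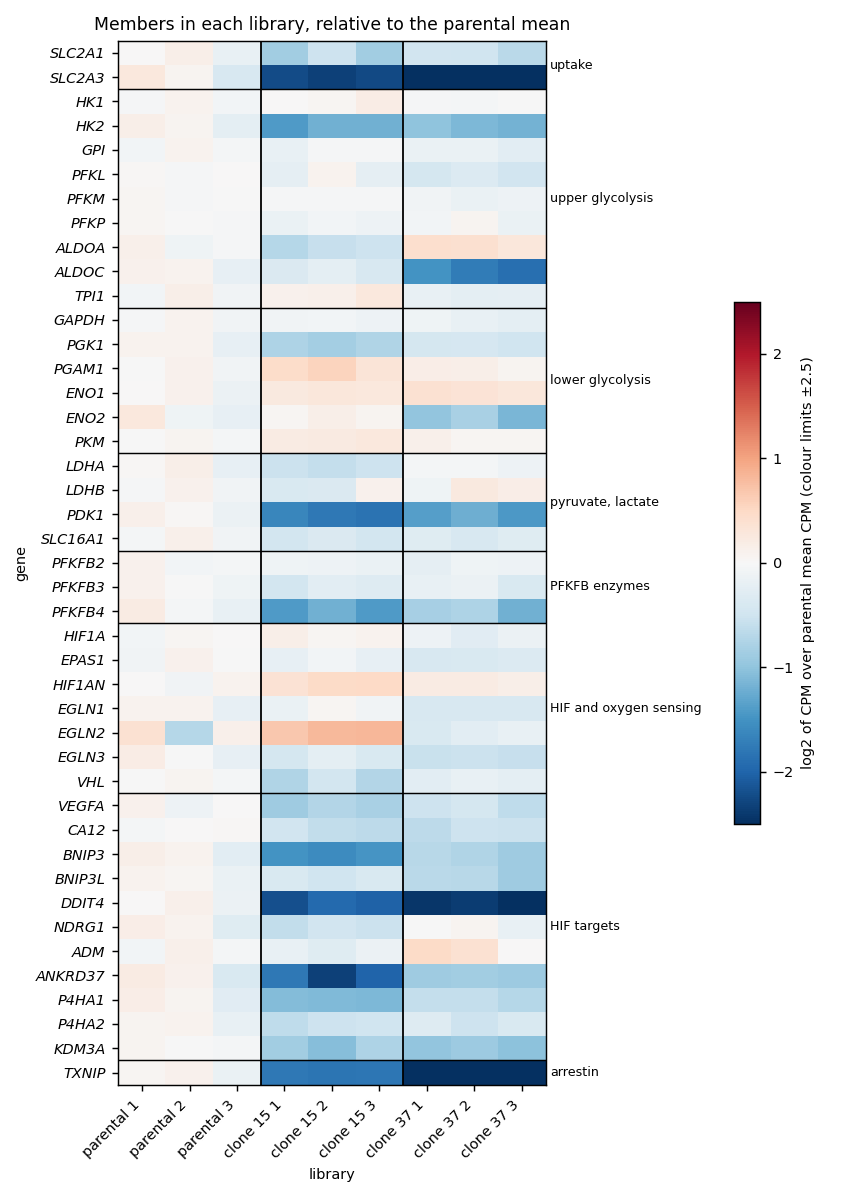
Level of each tested member (rows, grouped by role) in each of the 9 libraries (columns), as the log2 of CPM over the mean CPM of the 3 parental libraries, with colours limited to ±2.5. SLC2A3, DDIT4 and TXNIP are among the darkest blue rows in both clones, while HK1, PFKM, PFKP and GAPDH stay near white.

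Promoters were read because so many members were lower together. Known HIF targets were among the genes chosen, so an excess of HIF cores over other windows can follow from that choice. RefSeq windows from 250 bases before to 50 bases after the gene start (GRCh38.p14) were matched for 38 of the 45 members. The HIF core, ACGTG or GCGTG on either strand with overlapping matches counted as 1 site, was present in 28 of 38 windows (73.7%), against 48.4% of all 35116 windows and 56.2% of the 15315 windows of protein-coding genes. Among members lower in both clones it was present in 13 of 16 (81.3%), and 8 of the 16 held at least 2 sites. At least 2 sites were held by 10 of the 38 member windows (26.3%), against 20.0% of all and 25.2% of protein-coding windows. Of the 22 windows of members not lower in both clones, 15 held a site (68.2%) and 2 at least 2 sites. Those 22 include CA9 and SLC16A3, which were not tested and so could not be called. The E-box CACGTG, which contains ACGTG, was present in 6 of 38 windows (15.8%), against 7.26% of all and 8.87% of protein-coding windows. TGATGNAA, the composite element type of ATF4 and C/EBP factors, was present in 1 of 38 (2.63%), against 3.62% of all and 2.53% of protein-coding windows. A match describes the letters of a window and not binding. The background windows were not matched to the members for GC content. The sequences below, 5′ to 3′ on the gene's strand, are the parts of 5 upstream windows that no GENCODE 29 exon touches. BNIP3, PGK1, DDIT4 and TXNIP show members lower in both clones with several cores. PDK1, a member among the most lowered, had none in the window read, which had 36.3% GC. Only the first listed window of each member was used, so any other start of PDK1 was not read. Capitals mark each ACGTG or GCGTG core or its reverse complement (CACGT or CACGC).
BNIP3: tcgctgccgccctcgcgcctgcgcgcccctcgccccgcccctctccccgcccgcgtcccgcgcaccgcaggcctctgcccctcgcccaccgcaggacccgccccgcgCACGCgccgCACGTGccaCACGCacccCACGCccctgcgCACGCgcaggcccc
PGK1: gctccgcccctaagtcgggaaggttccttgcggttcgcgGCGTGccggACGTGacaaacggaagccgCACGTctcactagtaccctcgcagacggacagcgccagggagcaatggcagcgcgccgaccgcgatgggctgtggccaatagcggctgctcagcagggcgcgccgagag
DDIT4: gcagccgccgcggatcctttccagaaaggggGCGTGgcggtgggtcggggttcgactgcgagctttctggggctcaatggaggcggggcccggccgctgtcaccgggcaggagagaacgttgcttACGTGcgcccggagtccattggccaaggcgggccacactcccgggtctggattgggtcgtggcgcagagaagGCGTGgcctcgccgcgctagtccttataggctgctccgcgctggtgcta
TXNIP: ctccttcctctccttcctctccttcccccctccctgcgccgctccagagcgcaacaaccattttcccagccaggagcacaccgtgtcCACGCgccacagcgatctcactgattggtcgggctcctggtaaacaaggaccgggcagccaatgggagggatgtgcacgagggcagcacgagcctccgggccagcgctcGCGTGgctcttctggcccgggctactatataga
PDK1: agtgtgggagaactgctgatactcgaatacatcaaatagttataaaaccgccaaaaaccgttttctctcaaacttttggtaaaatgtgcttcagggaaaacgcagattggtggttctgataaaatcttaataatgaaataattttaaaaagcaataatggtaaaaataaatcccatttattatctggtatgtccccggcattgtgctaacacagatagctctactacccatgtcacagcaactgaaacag
The BNIP3 stretch (chr10:131982014-131982173, minus strand) holds 5 sites, that of PGK1 (chrX:78103998-78104173, plus strand) 3, that of DDIT4 (chr10:72273674-72273919, plus strand) 3, that of TXNIP (chr1:145996601-145996829, minus strand) 2 and that of PDK1 (chr2:172555123-172555372, plus strand) 0.

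Both glucose carrier genes were lower in both clones. SLC2A1 encodes GLUT1, the carrier of basal glucose uptake in most cells, and SLC2A3 encodes GLUT3, a carrier of high affinity that is typical of neurons. SLC2A3 (chr12:7919230-7936275, minus strand, GENCODE 29 on GRCh38) stood at 46.6, 40.8 and 29.5 CPM in the parental libraries, 8.32, 7.72 and 8.20 in clone 15, and 1.92, 2.03 and 1.70 in clone 37. All 3 groups were apart, and in clone 37 the gene was close to silent. Its log2 fold change was -4.39 (SE 0.22, adjusted p = 4.68e-08) in clone 37, which was the largest of any member, and -2.30 (SE 0.14, adjusted p = 2.2e-10) in clone 15. The clone 37 value rests on 21 counts in each library. Its transcript shares 11.5% of its 75-base words with the paralogue SLC2A14, and its counts are uncertain to that extent. SLC2A1 fell far less, from 71.6, 78.2 and 62.6 CPM to 38.9, 49.7 and 38.6 in clone 15 and 51.0, 50.2 and 44.4 in clone 37 (log2 fold changes -0.78, SE 0.11, adjusted p = 4.75e-06, and -0.57, SE 0.09, adjusted p = 2.67e-05). Per transcript length (TPM, counts scaled by length and library), GLUT3 made up 31.2% ± 3.59 (SD, n = 3) of the GLUT1 and GLUT3 transcripts in parental cells, 13.9% ± 2.09 in clone 15 and 3.12% ± 0.118 in clone 37.

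Among the 9 upper glycolytic genes, from hexokinase to triosephosphate isomerase, HK2 was furthest below parental cells in clone 15 and ALDOC in clone 37. In clone 37, 6 were lower and 1 was higher, and in clone 15, 3 were lower and 0 higher. The share lower was 66.7% in clone 37, against 27.3% of all genes tested. In clone 15 it was 33.3%, near the 26.2% of all genes. Called higher were 26.7% and 25.1% of all genes. HK2, the inducible hexokinase bound to mitochondria, fell from 201, 192 and 155 CPM to 68.8, 79.4 and 79.0 in clone 15 (log2 fold change -1.30, SE 0.10, adjusted p = 4.79e-10) and to 91.2, 83.3 and 80.9 in clone 37 (-1.13, SE 0.10, adjusted p = 1.95e-06). Its chromosome neighbours had medians of -0.35 in each clone. Against them HK2 was still called, at -0.95 in clone 15 and -0.77 in clone 37. The housekeeping hexokinase HK1 was not called in either clone: its 95% intervals ran from -0.18 to 0.07 in clone 37 and from -0.13 to 0.22 in clone 15 on the log2 scale. In parental cells the 2 enzymes were at near-equal levels per length (124 ± 5.35 TPM for HK1 and 111 ± 14.4 for HK2), and HK2's share of the pair went from 47.1% ± 2.86 to 25.9% ± 1.30 in clone 15 and 29.8% ± 1.38 in clone 37.

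ALDOC, the aldolase isoform of brain, was at 19.7, 19.3 and 15.8 CPM in parental cells, 14.2, 15.4 and 13.9 in clone 15, and 6.48, 5.42 and 4.94 in clone 37. The drop in clone 37 (log2 fold change -1.73, SE 0.14, adjusted p = 1.73e-08) was larger than that in clone 15 (-0.37, SE 0.12, adjusted p = 0.0137), and the clones differed by -1.37 (SE 0.13, adjusted p = 7.4e-10). The clone 15 call was lost without parental replicate 1 (log2 fold change -0.34), parental replicate 2 (-0.30), clone 15 replicate 1 (-0.33) or clone 15 replicate 3 (-0.32), and after thinning all libraries to the smallest total (-0.11), while against chromosome neighbours it was -0.68. ALDOA, the main aldolase of muscle and most dividing cells, went in opposite directions: 13.7, 11.6 and 12.2 CPM in parental cells, 7.61, 8.37 and 8.68 in clone 15 and 16.7, 16.5 and 15.3 in clone 37 (log2 fold changes -0.64, SE 0.14, adjusted p = 0.000376, and 0.35, SE 0.11, adjusted p = 0.0117). These counts hold only a part of the gene's reads, because 42.3% of its exon bases lie in AC093512.2, a gene annotated on the same strand. That same gene holds 48.7% of its 75-base words. Against chromosome neighbours the clone 15 value was -0.35, still called. The clone 37 call was lost against them (0.03), with DESeq2 (0.34), and without clone 37 replicate 1 (0.32) or parental replicate 3 (0.29).

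The 3 phosphofructokinase genes, whose product is the main control point of the pathway, lay nearer to parental cells than HK2. PFKL, the liver type, was lower in clone 37 (log2 fold change -0.44, SE 0.06, adjusted p = 3.42e-06), and its share of the 3 transcripts per length was 27.6% ± 0.382 in parental cells and 23.2% ± 0.329 in clone 37. In clone 15, PFKL was not called (-0.15) but was without clone 15 replicate 2 (-0.23), after removal of GC and length trends (-0.18) and against its chromosome neighbours (-0.40). PFKM, the muscle type, was called in clone 37 (-0.15) with a margin that 10 of 17 alternative settings removed, including the loss of any single clone 37 replicate (-0.17, -0.12 and -0.18 without replicates 1, 2 and 3) and of parental replicate 1 (-0.13). PFKP, the platelet type and the most abundant of the 3 per length, was not called in either clone (95% intervals -0.20 to 0.06 in clone 37 and -0.30 to 0.01 in clone 15). Against its neighbours PFKP was called lower in both (-0.20 and -0.24), and in clone 15 also after thinning (-0.23) or removal of GC and length trends (-0.27). GPI, which converts glucose 6-phosphate to fructose 6-phosphate, and TPI1, which interconverts the triose phosphates, were slightly lower in clone 37 (log2 fold changes -0.22 and -0.24). Against chromosome neighbours GPI and PFKM were lower by more there (-0.52 and -0.31). Those calls were lost for GPI without clone 37 replicate 3 (-0.22) or after removal of GC and length trends (-0.17), and without clone 37 replicate 2 or 3 for TPI1 (-0.22 and -0.26). In clone 15, TPI1 (0.13) was called only without parental replicate 2 (0.23), and GPI (-0.11) and PFKM (-0.06) only against chromosome neighbours (-0.25 and -0.27).

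Lower glycolysis, from GAPDH to pyruvate kinase, was mixed: 3 of 6 genes were lower and 1 higher in clone 37, and 1 was lower and 1 higher in clone 15. Background shares were 27.3% lower and 26.7% higher in clone 37, and 26.2% and 25.1% in clone 15. The clone 15 counts (16.7% each) lay below them. PGK1, which makes the first ATP of the pathway and is a classical HIF target, was lower in both. Its levels were 652, 658 and 536 CPM in parental cells, 361, 342 and 366 in clone 15, and 451, 459 and 436 in clone 37. The 3 groups did not overlap, and clone 15 was the lowest (log2 fold change -0.82, SE 0.10, adjusted p = 1.25e-07, against -0.48, SE 0.08, adjusted p = 5.73e-05, in clone 37). ENO2, the neuronal enolase, was at 46.3, 35.9 and 33.4 CPM in parental cells, 40.0, 42.4 and 40.3 in clone 15 and 19.4, 22.0 and 17.4 in clone 37. It fell in clone 37 (log2 fold change -0.998, SE 0.12, adjusted p = 8.69e-06) and was not called in clone 15 (0.06, 95% interval -0.15 to 0.27), and the 2 clones differed by -1.06 (SE 0.09, adjusted p = 1.87e-11). The general enolase ENO1 was far more abundant per length (1854 ± 140 TPM in parental cells against 47.7 ± 8.81 for ENO2). It was called higher in clone 37 (0.31), but the call was lost without parental replicate 3 (0.20) or with unstranded counts (0.27), and the 100 nearest tested genes on its chromosome had a median of 0.36. In clone 15, ENO1 (0.24) and the pyruvate kinase gene PKM (0.20) were not called, but were without parental replicate 2 (0.32 and 0.26) and under 5 and 3 other settings.

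GAPDH, often used as a reference gene, stood at 1795, 1946 and 1717 CPM in parental cells, 1712, 1726 and 1667 in clone 15, and 1687, 1594 and 1545 in clone 37. The difference in clone 37 was small (log2 fold change -0.20, SE 0.08, adjusted p = 0.0423), and the call was lost in 9 of 17 alternative settings, among them without parental replicate 1 (-0.22) or any clone 37 replicate (-0.24, -0.19 and -0.20 without replicates 1, 2 and 3). In clone 15, GAPDH (-0.13) was called only after removal of GC and length trends or against chromosome neighbours (-0.38). PGAM1, a phosphoglycerate mutase, was at 104, 113 and 98.5 CPM in parental cells, 144, 154 and 132 in clone 15, and 119, 116 and 111 in clone 37. It was higher in clone 15 (0.41, SE 0.09, adjusted p = 0.000232), and the clones differed (clone 37 over clone 15 at -0.31, SE 0.06, adjusted p = 4.88e-05). After removal of GC and length trends these values were 0.24 and -0.17, both called. Of its 75-base words, 39.8% occur in other genes, led by a processed pseudogene, and the part of read length in the clone 15 value was not tested. In clone 37 it was not called (0.10) except without parental replicate 2 (0.16). Summed over the 15 glycolytic enzyme genes, levels overlapped between the groups, at 6293 to 7169 CPM in parental cells, 6656 to 6853 in clone 15 and 6271 to 6685 in clone 37. Those enzymes made up 0.933% ± 0.047 of all protein-coding TPM in parental cells, 0.931% ± 0.0124 in clone 15 and 0.891% ± 0.0336 in clone 37. Per length, GAPDH (3393 ± 160 TPM) and ENO1 were the most abundant of them in parental cells, followed by PKM (1232 ± 27.6) and TPI1 (1212 ± 84), which lay within their spread of each other, and none of these was lower in both clones. That order and the sums can leave out reads of ALDOA, PGAM1 and other enzymes that fall on overlapping genes or near-identical copies.

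**Figure D2:**
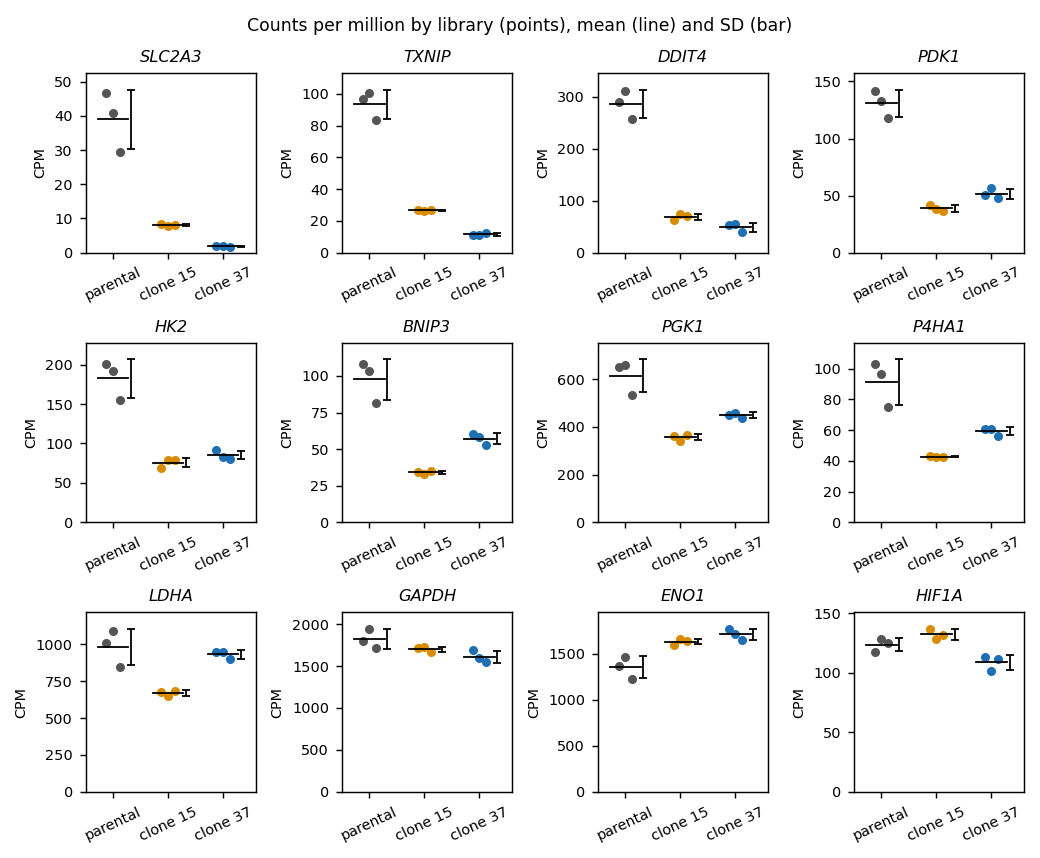
CPM of 12 members in each of the 9 libraries (points), with the group mean (line) and SD (bar, n = 3) and axes from 0. SLC2A3, TXNIP and DDIT4 are far below parental cells in both clones, PGK1, BNIP3 and P4HA1 are lowest in clone 15, and GAPDH, ENO1 and HIF1A differ by smaller ratios.

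At the branch point of pyruvate, PDK1 phosphorylates and blocks pyruvate dehydrogenase, which keeps pyruvate out of the mitochondrion. PDK1 (chr2:172555373-172608669, plus strand) stood at 142, 133 and 118 CPM in parental cells, 42.1, 37.9 and 36.3 in clone 15 and 50.2, 56.4 and 48.1 in clone 37. The groups did not overlap, and the log2 fold change of clone 15 was -1.78 (SE 0.09, adjusted p = 2.66e-14), while that of clone 37 was -1.37 (SE 0.08, adjusted p = 1.97e-10). Neighbouring genes on the chromosome were also lower (medians -0.63 and -0.48), by less than PDK1, which was still called against them (-1.15 and -0.89). LDHA, the main lactate dehydrogenase subunit of glycolytic cells, was at 1009, 1093 and 849 CPM in parental cells, 675, 648 and 684 in clone 15, and 952, 946 and 899 in clone 37. It fell in clone 15 (-0.59, SE 0.10, adjusted p = 4.13e-05), whereas in clone 37 (-0.10) it was called only without parental replicate 3 (-0.24) or when set against its chromosome neighbours (-0.25). The clones differed from each other (0.48 higher in clone 37, SE 0.05, adjusted p = 4.46e-09). SLC16A1 encodes MCT1, which carries lactate and pyruvate across the cell membrane. It was at 362, 410 and 356 CPM in parental cells, 274, 294 and 274 in clone 15 and 304, 284 and 306 in clone 37, lower in both clones (-0.45, SE 0.09, adjusted p = 0.000131, and -0.36, SE 0.07, adjusted p = 0.000289). Its chromosome neighbours had medians of -0.27 and -0.22, and neither call remained when SLC16A1 was set against them (-0.18 and -0.14). LDHB was not called in either clone, and 33.4% of its exon bases lie in another annotated gene, but in clone 15 it was called without parental replicate 3 (-0.31) or clone 15 replicate 3 (-0.38).

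The PFKFB genes encode enzymes that make and break fructose 2,6-bisphosphate, the strongest activator of phosphofructokinase. PFKFB4 fell from 31.7, 26.3 and 24.0 CPM to 10.2, 11.9 and 10.3 in clone 15 (log2 fold change -1.37, SE 0.12, adjusted p = 1.04e-09) and 15.3, 16.1 and 11.9 in clone 37 (-0.95, SE 0.12, adjusted p = 5.63e-06). PFKFB3, the form with the highest kinase activity, changed less, from 103, 95.5 and 88.9 CPM to 69.4, 80.2 and 76.8 in clone 15 (-0.38, SE 0.08, adjusted p = 0.000561) and 84.6, 86.4 and 73.4 in clone 37 (-0.26, SE 0.07, adjusted p = 0.00505). PFKFB2, the heart form, ran from 38.6 to 43.5 CPM in parental cells, from 35.6 to 37.1 in clone 15 and from 34.6 to 37.4 in clone 37. It was called in neither clone (95% intervals -0.35 to 0.02 and -0.33 to -0.01), except in clone 37 without parental replicate 2 (-0.20) or 3 (-0.24) and under 2 other settings. PFKFB4's share of the 3 transcripts per length was 22.1% ± 1.25 in parental cells, 12.1% ± 0.562 in clone 15 and 14.8% ± 1.18 in clone 37.

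**Figure D3:**
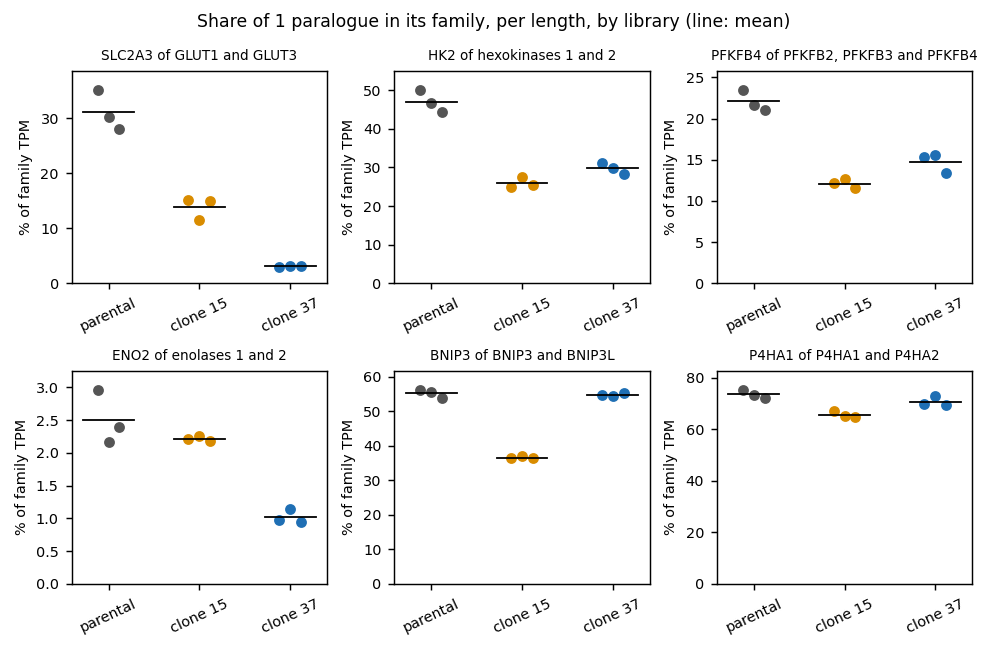
Share of 1 gene in the summed TPM of its family in each library (points) and group mean (line), for 6 families, with axes from 0. GLUT3, HK2 and PFKFB4 take smaller shares in both clones, ENO2 in clone 37, and BNIP3 and P4HA1 are lowest in clone 15.

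The messages for the HIF alpha subunits differed by less than those of most HIF targets. HIF1A (chr14:61695513-61748259, plus strand) was at 117, 128 and 125 CPM in parental cells, 137, 128 and 132 in clone 15 and 113, 102 and 111 in clone 37. Clone 37 was lower (log2 fold change -0.21, SE 0.06, adjusted p = 0.00915) and clone 15 was not called (0.07, 95% interval -0.10 to 0.23). The clone 37 call was lost without clone 37 replicate 2 (-0.16) or after removal of GC and length trends (-0.16), which made clone 15 a call (0.38), and the 100 tested genes around HIF1A had a median of -0.37 there, so that against them its change was 0.16. The clones differed by -0.28 (SE 0.06, adjusted p = 0.000229), or by 0.16 against their chromosome neighbours and -0.54 after removal of GC and length trends. EPAS1 was at 56.9, 65.1 and 60.2 CPM in parental cells, 52.4, 58.1 and 53.0 in clone 15, and 45.8, 46.5 and 47.7 in clone 37 (log2 fold change -0.41 in clone 37, SE 0.07, adjusted p = 0.000125). Its neighbours had medians of -0.43 in clone 37 and -0.58 in clone 15, and against them its change was 0.02 and 0.39. In clone 15, EPAS1 (-0.19) was called lower in 5 settings, among them without parental replicate 1 (-0.26), and higher against its neighbours. HIF activity is set mainly by the stability of the protein, which these data do not measure.

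Of the oxygen-sensing genes, EGLN3, itself a HIF target, was lower in both clones: 27.0, 23.7 and 20.6 CPM in parental cells, 17.4, 20.2 and 18.2 in clone 15, and 16.1, 16.4 and 15.9 in clone 37 (log2 fold changes -0.38, SE 0.11, adjusted p = 0.00671, and -0.58, SE 0.11, adjusted p = 0.000179). The clone 15 call was lost without parental replicate 1 (-0.32) or clone 15 replicate 1 (-0.32), and the clone 37 call was lost against chromosome neighbours (-0.27). VHL, which targets hydroxylated HIF for degradation, stood at 238, 252 and 232 CPM in parental cells, 143, 174 and 146 in clone 15 and 202, 213 and 203 in clone 37. The gene was thus lowest in clone 15 (-0.68, SE 0.09, adjusted p = 4.7e-07, against -0.25, SE 0.06, adjusted p = 0.00139, in clone 37). EGLN2 was at 12.3, 5.75 and 10.4 CPM in parental cells, 15.2, 16.7 and 16.9 in clone 15, and 7.30, 7.93 and 8.34 in clone 37. It was higher in clone 15 (0.77, SE 0.17, adjusted p = 0.00131), and parental replicate 2 stood well below the other parental libraries. Without that replicate EGLN2 was called lower in clone 37 (-0.55, against -0.27 with it), and its clone 15 value was 0.51. The clones differed by -1.04 (SE 0.12, adjusted p = 1.61e-08), or by -0.55 against chromosome neighbours, still called. Of its exon bases, 30.6% lie in the read-through gene RAB4B-EGLN2. EGLN1, the main oxygen sensor of most cells, fell in clone 37 (-0.42, SE 0.09, adjusted p = 0.000875) but was not called in clone 15 (-0.10, 95% interval -0.31 to 0.11), and the clones differed by -0.32 (SE 0.08, adjusted p = 0.00125). HIF1AN rose by 0.42 (SE 0.08, adjusted p = 7.54e-05) in clone 15, and by 0.20 against its chromosome neighbours, still called. In clone 37 its rise was 0.16 (0.05 against neighbours and 0.32 after removal of GC and length trends), a call that 12 of 17 alternative settings removed, including leaving out any clone 37 replicate (0.15, 0.16 and 0.16), parental replicate 1 (0.15) or parental replicate 3 (0.16).

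HIF targets outside glycolysis were lower in nearly every case. Of 11 tested, 9 were lower in clone 37 and 10 in clone 15, and 0 were higher in either. Among all genes tested, 27.3% were called lower and 26.7% higher in clone 37, against 26.2% and 25.1% in clone 15. The summed level of these HIF targets was 958 to 1150 CPM in parental cells, 520 to 545 in clone 15 and 568 to 655 in clone 37, with no overlap. DDIT4 (REDD1), which restrains the growth kinase mTORC1 and also answers to stress and glucocorticoids, was at 290, 312 and 258 CPM in parental cells, 62.3, 74.5 and 70.2 in clone 15, and 53.0, 55.4 and 39.4 in clone 37. Every library of both clones lay far below the lowest parental one, and DDIT4 was the most abundant of the group per length in parental cells (574 ± 46.7 TPM). The log2 fold change of clone 37 was -2.58 (SE 0.13, adjusted p = 5.55e-07), that of clone 15 was -2.09 (SE 0.09, adjusted p = 4.08e-15), and clone 37 was lower than clone 15 (-0.48, SE 0.10, adjusted p = 0.0011, and -0.93 with unstranded counts).

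BNIP3 and BNIP3L (NIX) mark mitochondria for removal by autophagy. BNIP3 was at 108, 103 and 81.8 CPM in parental cells, 34.4, 32.9 and 35.1 in clone 15, and 60.1, 58.3 and 52.9 in clone 37 (log2 fold changes -1.55, SE 0.10, adjusted p = 1.02e-11, and -0.80, SE 0.10, adjusted p = 3.52e-05). BNIP3L had the reverse order, with -0.45 in clone 15 (SE 0.09, adjusted p = 0.00013) against -0.78 in clone 37 (SE 0.08, adjusted p = 3.49e-07), and after removal of GC and length trends its clone 15 value was -0.23. As a result BNIP3 made up 55.1% ± 1.24 of the pair per length in parental cells, 54.8% ± 0.542 in clone 37 and 36.5% ± 0.318 in clone 15. P4HA1 and P4HA2 encode the catalytic subunits of collagen prolyl 4-hydroxylase. P4HA1 was at 103, 96.5 and 74.9 CPM in parental cells, 42.9, 42.5 and 42.2 in clone 15 and 60.8, 60.9 and 56.2 in clone 37, lower in both (-1.13, SE 0.10, adjusted p = 8.84e-09, and -0.65, SE 0.11, adjusted p = 0.00066). P4HA2 followed with -0.58 and -0.43.

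Of the other targets, VEGFA, the growth factor of blood vessels, had log2 fold changes of -0.83 in clone 15 and -0.55 in clone 37. KDM3A, a histone H3 lysine demethylase that uses oxygen, was at -0.93 and -1.0 (-0.59 and -0.65 against chromosome neighbours, both still called), and CA12, a membrane carbonic anhydrase, at -0.61 and -0.59. For those 2 genes the clones did not differ by the test (95% intervals -0.23 to 0.08 and -0.21 to 0.24), but without clone 15 replicate 2 KDM3A was called lower in clone 37 (-0.18). ANKRD37 was lower in both (-2.02 and -0.91) at 0.812 to 4.72 CPM, but 35.2% of its exon bases lie opposite UFSP2 and both calls were lost with unstranded counts (-0.57 and -0.42). NDRG1, a gene of stress and differentiation, was lower in clone 15 (-0.58, SE 0.10, adjusted p = 8.6e-05), where its neighbours had a median of -0.48, and that call was lost against them (-0.11). In clone 37 NDRG1 (-0.07) was called only without parental replicate 3 (-0.24). The clones differed by 0.51 (SE 0.06, adjusted p = 3.07e-08), but by -0.06 against chromosome neighbours. ADM, the vasodilator peptide adrenomedullin, was not called in clone 15 (-0.25) or clone 37 (0.27, 95% interval -0.02 to 0.55). It was called lower in clone 15 against chromosome neighbours or after removal of GC and length trends (-0.42 in each), and higher in clone 37 without parental replicate 2 (0.33) or clone 37 replicate 3 (0.37).

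TXNIP is an arrestin that lowers glucose uptake and is induced by the glucose sensors MondoA and ChREBP when sugar phosphates accumulate. TXNIP (chr1:145992435-145996600, minus strand) stood at 97.0, 101 and 83.3 CPM in parental cells, 27.1, 26.4 and 26.8 in clone 15 and 11.0, 10.9 and 12.5 in clone 37. The groups were well apart. The log2 fold change of clone 15 was -1.84 (SE 0.09, adjusted p = 2.86e-14), that of clone 37 was -3.05 (SE 0.10, adjusted p = 1.56e-13), and clone 37 was lower than clone 15 (log2 fold change -1.22, SE 0.10, adjusted p = 2.4e-11).

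**Figure D4:**
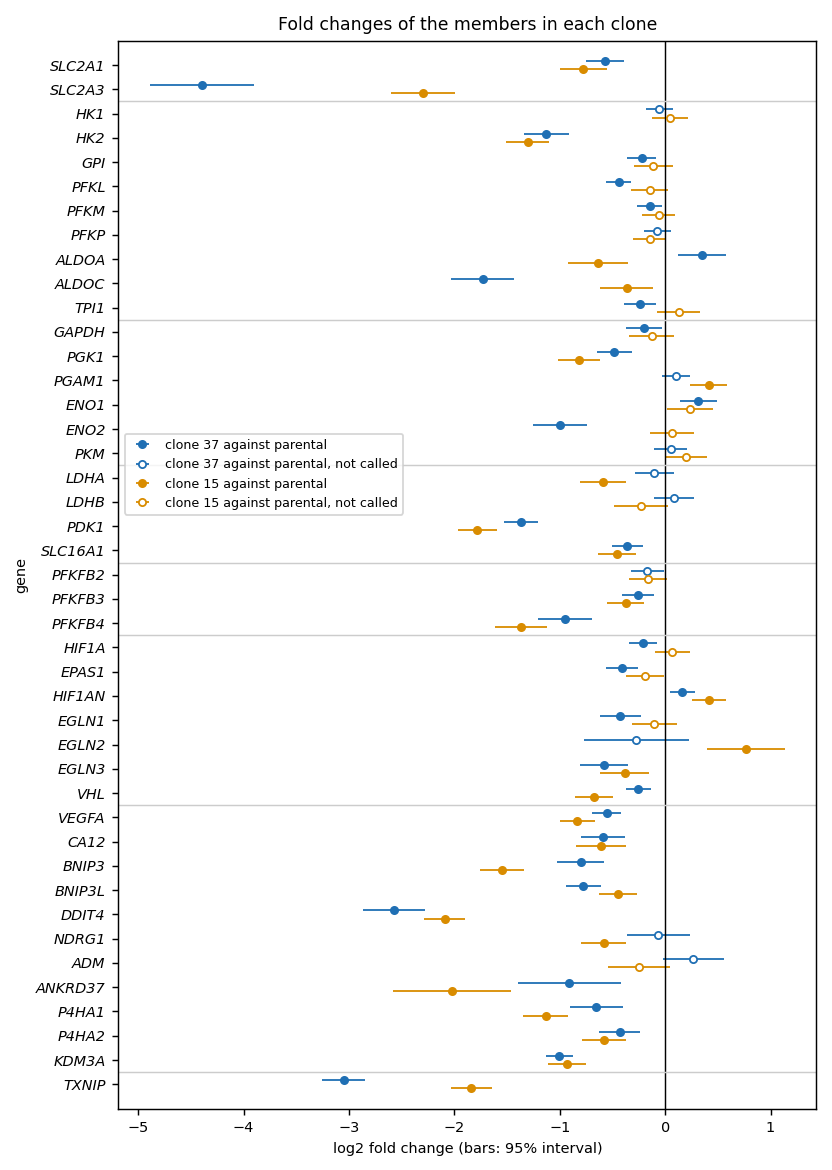
Fitted log2 fold change of each tested member against parental cells, for clone 37 (blue) and clone 15 (orange), with 95% intervals (bars), where filled points were called and open points were not. Most filled points lie left of 0, with SLC2A3 at -4.39 and TXNIP at -3.05 in clone 37 as the lowest.

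Compared directly, the clones differed in 29 of 43 members: 14 were higher in clone 37 and 15 were lower, where 28.7% of all 17712 genes tested were called higher and 29.0% lower. Of the 21 members lower in both clones, 15 also differed between them. Of these, 10 were higher in clone 37, and so nearer to the parental level: SLC2A1, HK2, PGK1, PDK1, PFKFB4, VHL, VEGFA, BNIP3, P4HA1 and the low-count ANKRD37. The 5 lower in clone 37 were SLC2A3, ALDOC, BNIP3L, DDIT4 and TXNIP. The same split over all genes lower in both clones was not computed. The largest of the first kind after ANKRD37 was BNIP3 (log2 fold change 0.74, SE 0.07, adjusted p = 7.67e-10), and the largest of the second SLC2A3 (-2.10, SE 0.18, adjusted p = 8.97e-11). For SLC2A1 (0.20) and HK2 (0.18) that call was weak. It was lost for SLC2A1 without clone 37 replicate 1 (0.17), clone 37 replicate 2 (0.19), clone 15 replicate 1 (0.13) or clone 15 replicate 3 (0.13) and under 5 other settings, and for HK2 without clone 37 replicate 1 (0.13) or clone 15 replicate 1 (0.10) and under 2 other settings. Removal of GC and length trends raised both differences (0.35 and 0.28). Against chromosome neighbours the calls of BNIP3L (-0.33, then -0.11) and ANKRD37 (1.11, then 0.67) were lost, the latter also with unstranded counts (0.15), while thinning raised it (1.95).

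**Figure D5:**
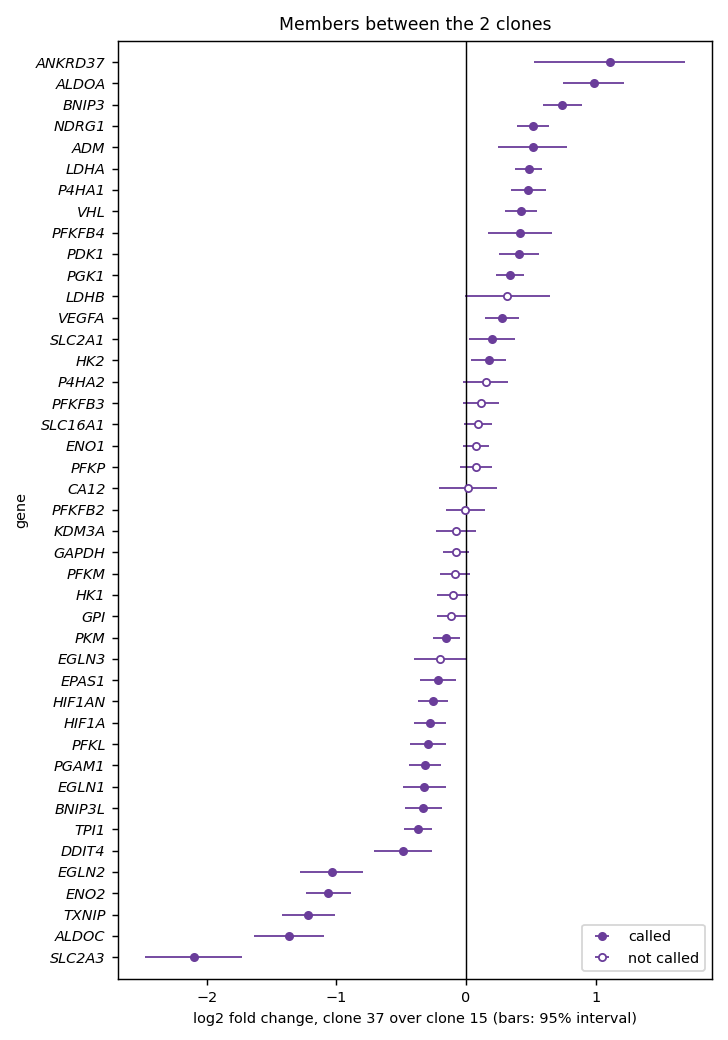
Fitted log2 fold change of each tested member in clone 37 over clone 15, sorted, with 95% intervals (bars), where filled points were called. ANKRD37 and ALDOA lie highest, and SLC2A3, ALDOC and TXNIP lowest, with 14 called above 0 and 15 below.

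Beside the members, 85 further genes of the same pathways were read from 6 lists. The largest list held 30 other HIF targets: of 28 tested, 19 were lower and 2 higher in clone 37 (median log2 fold change -0.52), and 16 were lower and 4 higher in clone 15 (median -0.58). Over all genes tested, 27.3% were lower and 26.7% higher in clone 37, and 26.2% and 25.1% in clone 15. BHLHE40, a transcriptional repressor of the clock, fell from 118 ± 19.3 CPM to 25.5 ± 1.12 in clone 15 and 33.7 ± 2.43 in clone 37 (log2 fold changes -2.25, SE 0.11, adjusted p = 1.67e-12, and -1.83, SE 0.13, adjusted p = 2.95e-06). PPP1R3C, which promotes glycogen storage, was lower in both clones, at 27 to 45 counts in parental libraries, 2 to 5 in clone 15 and 6 to 8 in clone 37. LOX, which cross-links collagen, fell from 57.0 ± 8.61 CPM to 20.9 ± 1.26 and 21.6 ± 1.07, and HILPDA, a lipid droplet protein, from 32.4 ± 4.10 to 9.49 ± 2.30 and 12.1 ± 1.52. HMOX1 and PLOD1 were higher in both clones, and HMOX1 (heme oxygenase) is also a target of the oxidative stress factor NRF2. The neighbours of PLOD1 were higher too (medians 0.32 in clone 37 and 0.44 in clone 15, against 0.54 and 0.70 for the gene). LOX, HILPDA, HMOX1 and PLOD1 were picked for naming after their values were seen.

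None of the remaining lists had more genes lower than higher in both clones. The shares over all genes tested were 26.7% higher and 27.3% lower in clone 37, and 25.1% and 26.2% in clone 15. Of 10 tested isoforms and side enzymes of glycolysis (22 listed), 6 were higher and 2 lower in clone 37, and 3 were higher and 2 lower in clone 15. The share higher in clone 37 (60%) thus stood above that of all genes. SLC16A7 (MCT2), a lactate carrier, was higher in clone 37 (1.09, SE 0.10, adjusted p = 6.01e-08) and BPGM, which makes 2,3-bisphosphoglycerate, was lower (-1.07, SE 0.10, adjusted p = 1.32e-07), where its chromosome neighbours had a median of -0.76. In clone 15, TIGAR, which lowers fructose 2,6-bisphosphate, was higher (0.91, SE 0.10, adjusted p = 6.05e-08) and the insulin-responsive carrier SLC2A4 lower (-0.86, SE 0.18, adjusted p = 0.000213). Of 13 genes of pyruvate entry into mitochondria, 5 were higher and 3 lower in clone 37, led by the pyruvate dehydrogenase phosphatase gene PDP2 (0.65) and the subunit gene DLAT (0.49), and 1 was higher and 4 lower in clone 15, led by pyruvate carboxylase PC (1.08) and PDK4 (-0.86). Of 6 pentose phosphate genes, 2 were higher and 2 lower in clone 37, and 2 were higher and 3 lower in clone 15. RPE, which interconverts pentose phosphates, was lower in both clones (-0.50 in clone 37 and -0.69 in clone 15), and PGD, the 6-phosphogluconate dehydrogenase, was higher in both (0.41 and 0.50). The medians of their neighbours lay in the same direction, at -0.40 and -0.43 for RPE and 0.32 and 0.40 for PGD. Of the pyruvate genes, PDP2 had a neighbour median of 0.25 in clone 37, and in clone 15 that of PC was 0.40 and that of PDK4 -0.31.

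Of 10 HIF partners and degradation factors, 3 were higher and 3 lower in clone 37, and 0 were higher and 3 lower in clone 15. For all genes tested the shares were 26.7% higher and 27.3% lower in clone 37, and 25.1% and 26.2% in clone 15. Apart from the 0 higher in clone 15, the counts of this list lay near those shares. CITED2, a HIF target that competes with HIF for its coactivators, was lower in both (-1.25, SE 0.08, adjusted p = 9.55e-10, and -0.65, SE 0.09, adjusted p = 1.76e-06), and the ubiquitin ligase subunit ELOC was higher in clone 37 (0.65, with a neighbour median of 0.24). HIF3A was called lower in clone 15 on 0 to 15 counts per library. The 4 genes of the MondoA and ChREBP sensors had 2 higher and 1 lower in clone 37 and 2 of each in clone 15. ARRDC4, an arrestin paralogue of TXNIP, was lower in both clones (clone 37: -1.33, SE 0.09, adjusted p = 1.08e-08, and clone 15: -1.25, SE 0.10, adjusted p = 1.7e-10). The MondoA gene MLXIP was higher in both (0.49, SE 0.06, adjusted p = 1.33e-06 for clone 37, and 0.45, SE 0.08, adjusted p = 7.49e-05 for clone 15), and the ChREBP gene MLXIPL was lower in clone 15 (-0.85, SE 0.13, adjusted p = 1.89e-05, with a neighbour median of -0.30).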

How the data were processed

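Total RNA of 9 libraries (3 parental, 3 clone 15, 3 clone 37) was depleted of ribosomal RNA and made into directional libraries from 500 ng of RNA with 13 cycles of amplification, per the labels' protocols. The deposited values are whole-number counts of reads per gene, 1 file per library, made by the authors with STAR 2.7.10a on hg38 after FastQC 0.11.9, per the submitters' processing notes. The annotation release, trimming and filters are not given in the sources used here. Each file holds an unstranded and 2 stranded counts per gene after 4 summary entries that name no gene. Those entries stayed out of library sizes, and 19.2% to 34.6% of read pairs fell outside exons of the transcript strand. Column 4 was used, since 92.6% to 94.0% of the stranded counts per library were in it. Such files count uniquely mapped reads, which undercounts genes that have near-identical copies. Gene counts were 10809034 to 13902872 in parental, 18654063 to 38093340 in clone 15 and 10334090 to 12352171 in clone 37 libraries.

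Of the 60683 IDs, 60370 had a symbol and 58496 matched GENCODE 29, which supplied positions, exons and the longest transcript length. CPM are counts scaled to a common total of gene counts, and TPM (also scaled by length) were computed over protein-coding genes. Each comparison was fitted on its own 6 libraries in edgeR 4.0.16 (filterByExpr, TMM, robust glmQLFit, glmQLFTest, R 4.3.3), with Benjamini-Hochberg adjustment over all genes tested and a threshold of 0.05. The SE was obtained from the log2 fold change and the F statistic of its test, and intervals are 95%. Each fit was tested on simulated counts with 200 changed genes. The alternatives were RLE size factors, DESeq2 1.42.0, no filter, unstranded counts, a minimum of 1 CPM in at least 3 libraries, thinning, 1 fit of all 9 libraries, protein-coding genes only, a replicate block, removal of GC and length trends (mgcv 1.9.3), each gene against the median of its 100 tested chromosome neighbours, leaving out each library, and mean transcript length for TPM.

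The members, lists, tests and alternatives were chosen with earlier results of these data known. Values in every library were given for tested members that reached a mean of 5 CPM in a group and ranked in the first 3 of their role list by the larger absolute fold change against parental cells, and for HIF1A, EPAS1, GAPDH and PGK1. From each further list the 2 called genes with the largest change in each comparison against parental were named. A single gene was left out of the further lists and is not reported here. Per-library values were also used to describe counts of low genes. Promoter sequences are from RefSeq (GRCh38.p14). Protein sequences were not used here. Python 3.11.15, numpy 2.4.6, pandas 2.3.3 and matplotlib 3.10.9 served the other steps.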

Additional observations from a re-analysis of the deposited data

Results flagged for a closer look

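Groups of 3 libraries were not screened for a single library that stands out. A gene was taken up here when it was called in opposite directions in the 2 clones against the same parental libraries and also called between the clones. ALDOA was the only one of the 45 members to meet this: it was higher in clone 37 (log2 fold change 0.35, SE 0.11) and lower in clone 15 (-0.64, SE 0.14), with a difference between the clones of 0.99 (SE 0.12, adjusted p = 2.72e-08 by edgeR). The tested genes around ALDOA on its chromosome had medians of 0.32 in clone 37 and -0.29 in clone 15, AC093512.2, which shares its exons, was at 6.10 to 6.21 CPM in clone 37 and at most 4.36 CPM elsewhere, and the part of that gene in the result was not tested. Against the chromosome neighbours ALDOA was at 0.03 in clone 37, no longer called, at -0.35 in clone 15 and at 0.48 between the clones, both called.

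Of the 85 further pathway genes, 3 met it. GYS1, the muscle glycogen synthase, differed between clone 37 and clone 15 by -0.56, KDM4C, a histone demethylase, by -0.59, and PDP1, a pyruvate dehydrogenase phosphatase, by 0.67. The medians of their chromosome neighbours in that comparison were -0.57 for GYS1, -0.46 for KDM4C and 0.71 for PDP1. In clone 15 the calls of GYS1 (0.26, SE 0.08) and KDM4C (0.21, SE 0.08) were of small size.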

How the results depend on the processing

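Members called lower than parental cells numbered 26 to 31 in clone 37 and 24 to 29 in clone 15 under the settings with all libraries, and 26 to 33 and 22 to 25 when 1 library was left out. Those lower in both clones numbered 19 to 25, and 17 of the 21 kept both calls in every setting. Members called higher in clone 37 were few and unsteady: 3, but 1 with DESeq2, 1 with unstranded counts, 1 against chromosome neighbours, and 0 to 5 without 1 library (0 without parental replicate 3, 1 without clone 37 replicate 1 and 5 without parental replicate 2). In clone 15 they numbered 3, but 5 with DESeq2, 5 with all 9 libraries in 1 fit, 5 with protein-coding genes only, and 3 to 6 without 1 library (6 without parental replicate 2). Pathway genes beside the members that were higher in clone 37 numbered 20, and 13 against chromosome neighbours. With mean transcript length the glycolytic enzymes' share of TPM was 0.852% in parental cells, 0.863% in clone 15 and 0.825% in clone 37. Against chromosome neighbours, 8 log2 fold changes called with neither method changed sign, and 7 called with at least 1 did: ENO1 (-0.049), HIF1A (0.16) and EPAS1 (0.020) in clone 37, EPAS1 (0.39) in clone 15, and HIF1A (0.16), EGLN3 (0.32) and NDRG1 (-0.058) between the clones. The replicate block gave 28 members lower and 2 higher in clone 37, and 24 and 3 in clone 15. Libraries with the same number did not deviate together (correlations -0.162 to 0.023), and not every library correlated best with its own number. Calls rest on 3 libraries a group, and differences near 0.2 on the log2 scale were called in some settings only. Some larger ones also depended on the setting. Against chromosome neighbours the calls of NDRG1 (-0.58) and SLC16A1 (-0.45) in clone 15 and EGLN3 (-0.58) in clone 37 were lost. With unstranded counts that of ANKRD37 in clone 15 (-2.02) was lost. Low counts limit SLC2A3 in clone 37, ANKRD37, PPP1R3C and HIF3A.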
